A study of Rattus with 27 samples.

Results

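The 35 genes described here encode the T cell receptor complex, its co-receptors, the kinases and adaptors that carry its signal, co-stimulatory receptors, and the transcription factors and cytokine receptors that define T cells. A gene was included where the array measured it through a probe listed for that gene alone, and where a gene had several, the probe with the highest overall mean across the 27 arrays stood for it. Of the 35 genes 33 were measured, each by 1 probe, among 14506 genes in all, and Themis and Bcl11b were not analysed here. The samples came from 9 Sprague Dawley rats, 3 each labelled sham, model and vehicle, and every rat gave 1 array each for white blood cells separated from whole blood, for spleen homogenate and for brain homogenate at 6 h. Sham rats were anaesthetised and had blood vessels separated, and per the treatment protocol all other rats underwent middle cerebral artery occlusion (MCAO), a closure of one of the large brain arteries that models ischaemic stroke. Besides sham, the protocol lists vehicle control rats and rats treated with YJ (Yiqi Jiedu formulae, 25 mg/kg), whereas the sample titles say model and vehicle. The labels do not settle which of these rats received YJ, so the groups are called model-labelled and vehicle-labelled, and no difference is read as an effect of YJ. Ages are not given in the labels used here, and with no hybridization batch given either, batch and group cannot be told apart.

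T cells recognise peptides through a receptor that has no signalling tail of its own and signals through the CD3 chains and CD247. The kinase LCK, held at the CD4 and CD8 co-receptors, phosphorylates these chains, ZAP70 docks on them, and ZAP70 in turn phosphorylates the scaffold LAT. Naive T cells recirculate between blood, spleen and lymph nodes, guided in part by the chemokine receptor CCR7, and depend on interleukin 7 for survival. In blood and spleen the genes can report how much of the RNA comes from T cells, and in these bulk samples fewer T cells and less RNA per T cell cannot be told apart.

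Values are deposited RMA values read as log2 intensities, so a difference of 1 is a doubling. Groups are given as mean ± SD of 3 arrays and differences with the standard error (SE) of a limma fit. A gene is said to have risen or fallen only where its p-value, adjusted by Benjamini-Hochberg over all 14506 genes, was under 0.05. Replicate arrays correlated across genes with r between 0.968 and 0.995. Having 3 arrays in a group limits the precision. Values by rat are given in the order sham 3, 4 and 5, model-labelled 1, 2 and 3, and vehicle-labelled 2, 4 and 5. The group comparisons of a tissue share arrays, so they are not independent of each other. Neuron markers averaged between 8.82 and 10.13 in brain arrays and at most 4.56 elsewhere. Genes of splenic red pulp and stroma averaged between 8.37 and 8.84 in spleen and at most 5.55 elsewhere. In the white blood cell arrays the 4 measured platelet genes averaged between 11.73 and 12.17 and the 10 erythroid genes between 7.06 and 10.04, so these separated cells also held platelet and red cell transcripts.

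In sham rats the T cell genes were highest in white blood cells, lower in spleen and lowest in brain. Of the 33 genes 27 were higher in blood than in spleen, none lower, and 6 did not pass the test, with a median difference of 1.26 against 0.12 over all genes tested. That fit leaves out that the tissues came from the same rats. With the rat as a random block 28 were higher and 1 lower, since Cd3g (adjusted p = 0.0437) and Il7r (adjusted p = 0.0443, lower in blood) then passed. In the fit without the block, 19.7% of all genes were called higher in blood and 19.3% lower. The shares with the block are not given here, so the added calls are not read as a result about the T cell genes. Against brain, 32 of 33 were higher in blood (background 31.1%) and 30 of 33 were higher in spleen (background 27.4%), with medians of 3.94 and 2.33. The exception in both, where 28% and 26.3% of all genes were called lower, was Thy1, a surface glycoprotein that neurons carry abundantly, at 11.40 ± 0.27 in brain, 7.26 ± 0.27 in blood and 7.38 ± 0.42 in spleen (SD, n = 3). Ctla4, the inhibitory relative of CD28, and Satb1, a chromatin organiser that many neurons also express, did not pass the test between spleen and brain. Ctla4 was low in both, at 4.11 ± 0.32 in spleen and 3.52 ± 0.10 in brain, though its spleen arrays all lay above its brain arrays. Satb1 averaged 8.88 ± 0.43 in spleen and 8.68 ± 0.91 in brain, so its probe separates those tissues poorly.

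**Figure D1:**
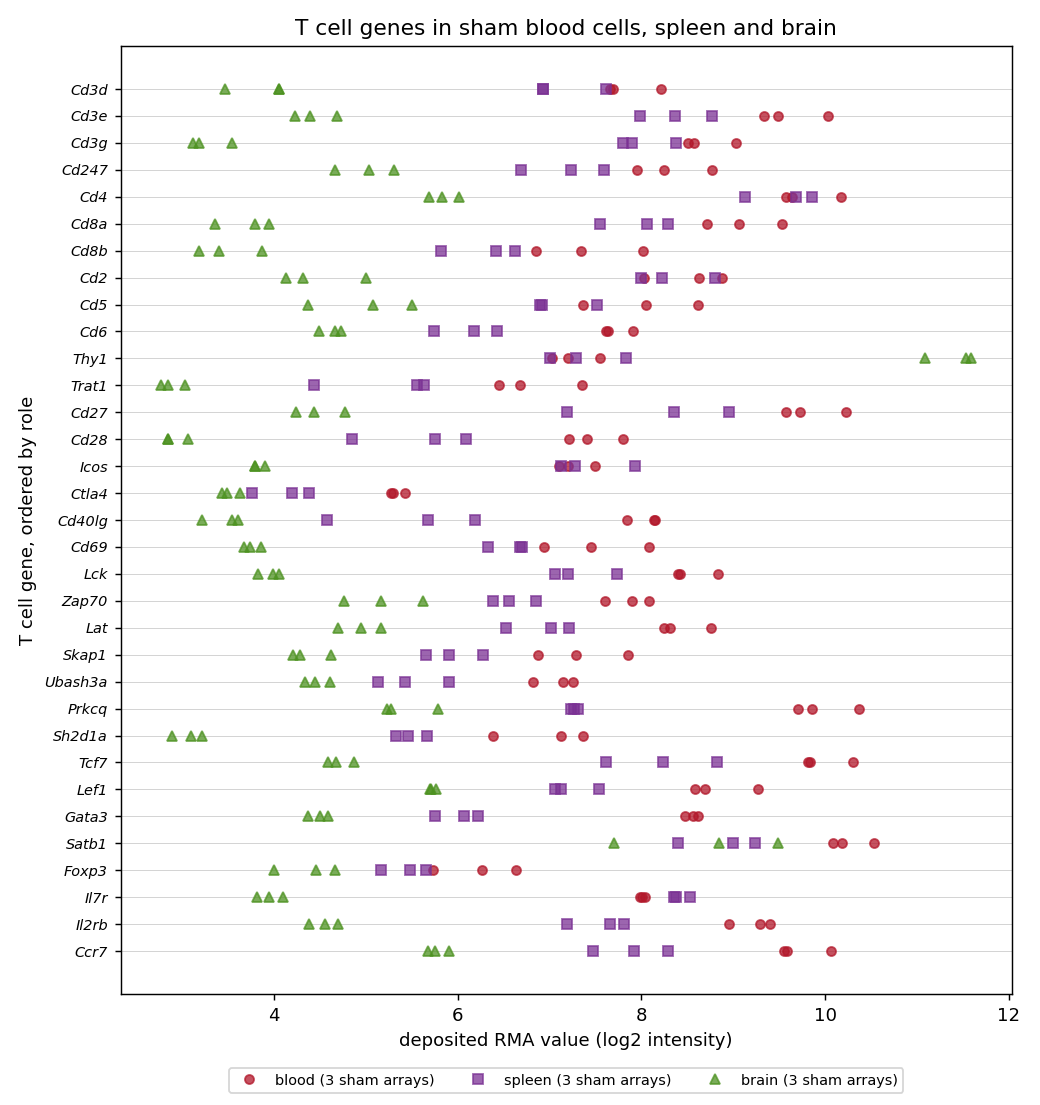
Deposited log2 values (horizontal axis) of the 33 measured T cell genes (rows, ordered by role) in the 3 sham arrays each of white blood cells, spleen and brain. Brain arrays lie lowest for most genes, except Thy1, where they lie near 11.40, and Satb1, where brain and spleen arrays overlap.

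The genes differed in how far blood stood above spleen. All 7 kinases and adaptors and all 5 transcription factors were higher in blood, with medians of 1.47 and 1.61, and 5 of 7 genes of the CD3 complex and co-receptors were (median 1.12). Prkcq, the protein kinase C theta gene of T cells that is also active in platelets, was higher in blood by 2.71 (SE 0.21, adjusted p = 3.46e-10). Cd40lg, the ligand by which helper T cells license B cells, differed by 2.56 (SE 0.28) and Gata3, a factor of T cell development and of type 2 helper cells, by 2.54 (SE 0.43). The receptor complex genes differed less: Cd3e by 1.24, Cd247 by 1.15, Cd8a by 1.14, Cd8b by 1.12 and Cd3d by 0.69, while Cd3g (0.68, adjusted p = 0.0661) did not pass without the block. Cd4 showed 0.24 (adjusted p = 0.322), with overlapping arrays. In the rat, monocytes and macrophages also carry CD4. Cd2, Icos and Thy1 lay within 0.18 of equality and did not pass either. Il7r, the interleukin 7 receptor, leaned the other way, at 8.01 ± 0.03 in blood and 8.42 ± 0.09 in spleen (difference -0.41, adjusted p = 0.0533 without the block and 0.0443 with it), and its 3 spleen arrays all lay above its 3 blood arrays.

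The comparison of vehicle-labelled with sham rats in blood gave 1 T cell gene that fell, Cd6, and none that rose. CD6 is a scavenger-receptor family glycoprotein that tunes T cell receptor signals. Cd6 measured 7.62, 7.91 and 7.64 in sham and 7.13, 6.82 and 7.25 in vehicle-labelled blood. All 3 vehicle-labelled arrays lay below all sham arrays, and the fall was 0.66 (SE 0.15, adjusted p = 0.0397, 1.58-fold lower). The model-labelled values, 7.67, 7.41 and 7.84, overlap sham. In the same comparison limma called 2.01% of all genes, and 0.427% of all genes lower. The fall of Cd6 was not called once vehicle 2, vehicle 4, model 1, sham 3, sham 4 or sham 5 was left out (adjusted p between 0.0547 and 0.192), with arrays centred on their median (0.0932) or in a fit of all 27 arrays (0.0673).

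Across the 33 genes the median difference of vehicle-labelled from sham blood was -0.25, against -0.06 over all genes, and 25 genes lay below 0 and 8 above. It was -0.12 without vehicle 4, -0.07 without sham 4 and -0.40 without sham 3. At an unadjusted p under 0.05 there were 10 lower and 1 higher, where 7.96% of all genes were lower and 5.41% higher. In 7 genes every vehicle-labelled array lay below every sham array, namely Cd3d, Cd6, Cd27, Cd40lg, Lat, Tcf7 and Gata3, against 9.89% of all genes in that direction. Cd69 alone of the 33 stood apart in the other direction (background 5.38%).

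Set directly against model-labelled rats, the vehicle-labelled blood samples had lower Cd40lg and Tcf7. Cd40lg measured 8.14, 8.15 and 7.84 in sham, 8.30, 8.34 and 8.32 in model-labelled and 7.56, 7.03 and 7.71 in vehicle-labelled blood. The 3 groups did not overlap, with sham between the others, and Cd40lg fell by 0.89 (SE 0.16, adjusted p = 0.0118, 1.85-fold lower). Without model 1 the adjusted p was 0.0557, and in the fit of all 27 arrays it was 0.179. Against sham the difference of Cd40lg was -0.61 (adjusted p = 0.0844).

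Tcf7 encodes TCF1, the factor that sustains naive and memory T cells. It measured 9.84, 10.31 and 9.81 in sham, 10.33, 10.09 and 10.22 in model-labelled and 9.56, 9.02 and 9.62 in vehicle-labelled blood. Every vehicle-labelled array was again below every other blood array, and the fall from model-labelled rats was 0.81 (SE 0.17, adjusted p = 0.0321, 1.76-fold lower). That call was lost without vehicle 2, vehicle 4, model 1, model 2 or model 3 (adjusted p between 0.0633 and 0.16), with arrays centred on their median (0.0694) and in the fit of all 27 arrays (0.22). Against sham, Tcf7 differed by -0.59 (adjusted p = 0.129).

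These were 2 calls of 33, both lower, where 1.56% of all genes were called and 0.296% were called lower. The median of the 33 genes between vehicle-labelled and model-labelled blood was -0.40, against -0.02 over all genes, with 28 genes below 0. Without vehicle 4 the median was -0.25. At an unadjusted p under 0.05 there were 16 lower and none higher, where 5.23% of all genes were lower and 5.64% higher. Vehicle-labelled arrays lay wholly below model-labelled arrays for 11 genes, against 10.4% of all genes: Cd3e, Cd4, Cd6, Cd27, Cd40lg, Lat, Tcf7, Lef1, Gata3, Satb1 and Foxp3. Only Cd69 and Prkcq stood wholly above (background 8.52%).

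**Figure D2:**
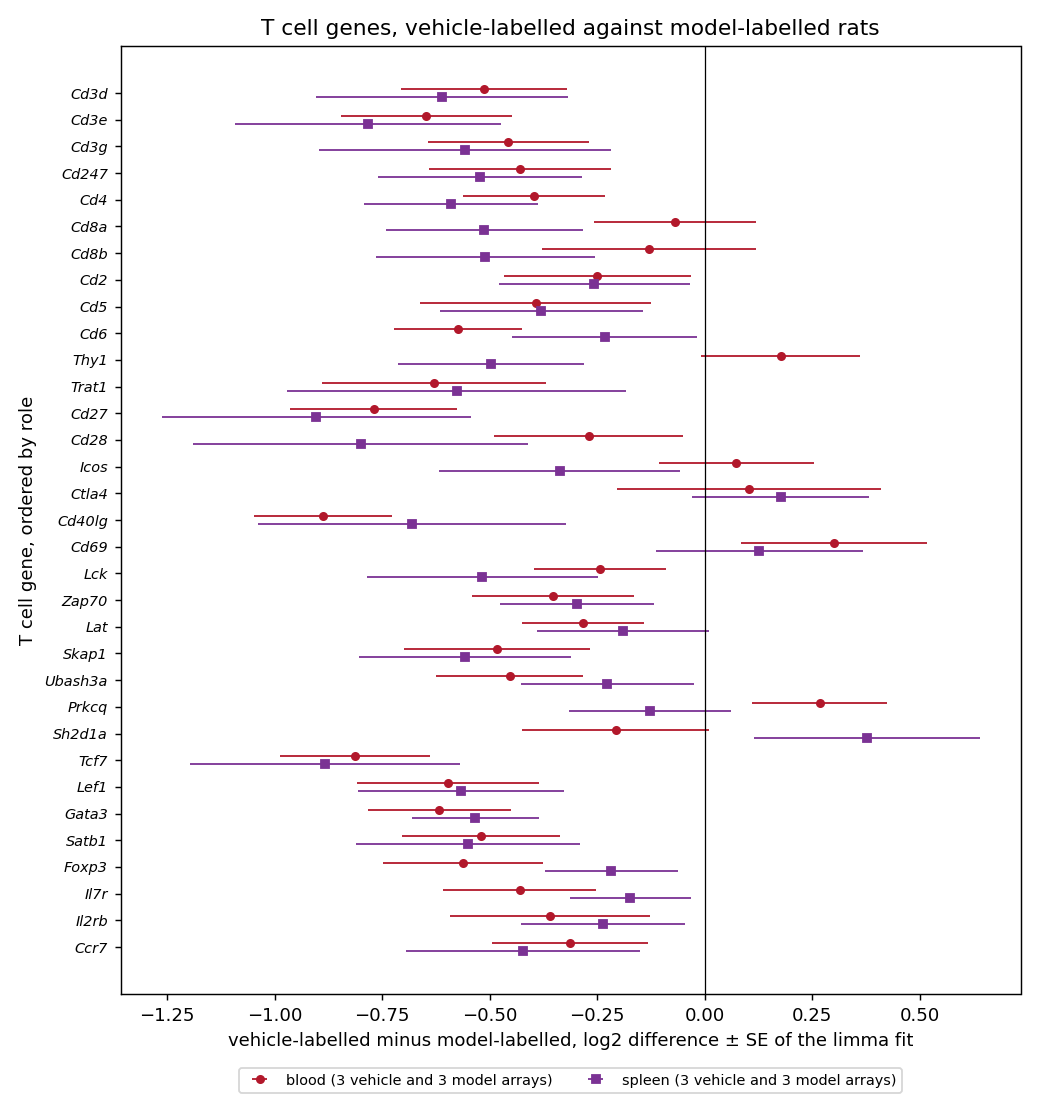
Vehicle-labelled minus model-labelled difference (log2, horizontal axis; bars are the SE of the limma fit) of each T cell gene (rows, ordered by role) in white blood cells and in spleen, 3 against 3 arrays each. Blood has 28 genes below 0 and spleen 30, but just Cd40lg and Tcf7 passed the test, both in blood.

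By role, all 7 genes of the CD3 complex and co-receptors had a value below 0 between vehicle-labelled and model-labelled blood, with a median of -0.43 and none called. Cd3e, the CD3 epsilon chain, measured 9.34, 10.03 and 9.49 in sham, 9.89, 9.59 and 10.03 in model-labelled and 9.19, 8.86 and 9.52 in vehicle-labelled blood. Its vehicle-labelled arrays lay below the model-labelled ones and overlapped sham, and the differences were -0.65 (adjusted p = 0.182) and -0.43 (adjusted p = 0.368). Cd4 measured 9.57, 10.17 and 9.64 in sham, 9.70, 9.78 and 9.80 in model-labelled and 9.44, 9.08 and 9.57 in vehicle-labelled blood. Its vehicle-labelled arrays did not exceed any other array, 1 of them tying with sham 3, and the difference from model-labelled rats was -0.40 (adjusted p = 0.394). Cd8a, the co-receptor chain of cytotoxic T cells and in the rat also of natural killer cells, measured 8.72, 9.53 and 9.06 in sham, 9.04, 8.75 and 8.87 in model-labelled and 8.80, 8.57 and 9.08 in vehicle-labelled rats. The 3 groups overlapped, with a difference of -0.07 between vehicle-labelled and model-labelled blood (adjusted p = 0.96). Cd8b gave -0.13.

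The transcription factors showed the lowest median of the role groups, -0.60, and in all 5 of them the vehicle-labelled arrays lay below the model-labelled arrays. Besides Tcf7 these were Gata3 (-0.62, adjusted p = 0.109), Lef1, the partner of TCF1 (-0.60, adjusted p = 0.277), Foxp3, which marks regulatory T cells (-0.56, adjusted p = 0.228), and Satb1 (-0.52, adjusted p = 0.272). The 7 kinases and adaptors had a median of -0.28 and 6 of them lay below 0. Lck, at 8.40, 8.83 and 8.42 in sham, 8.59, 8.36 and 8.68 in model-labelled and 8.25, 8.10 and 8.55 in vehicle-labelled rats, overlapped throughout (-0.24, adjusted p = 0.663). Zap70 gave -0.35 and Lat -0.28, neither called, and Prkcq gave 0.27. The adaptors Skap1 and Ubash3a, the latter a brake on receptor signals, gave -0.48 and -0.45, and Sh2d1a, the SLAM-associated adaptor, gave -0.21. Among surface adhesion and modulator genes 4 of 5 lay below 0 (median -0.39), with Cd6 at -0.57 (adjusted p = 0.0905), Trat1 at -0.63, Cd5 at -0.39 and Cd2 at -0.25, and Thy1 at 0.18. All 3 cytokine and homing receptor genes lay below 0, with Il7r at -0.43, Il2rb at -0.36 and Ccr7 at -0.31. None of these was called.

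The 6 co-stimulatory and activation genes did not share a direction, with 3 below and 3 above 0 between vehicle-labelled and model-labelled blood. Cd28, the main co-stimulatory receptor, measured 7.21, 7.80 and 7.41 in sham, 7.87, 7.80 and 7.85 in model-labelled and 7.80, 6.96 and 7.95 in vehicle-labelled rats. Vehicle-labelled rat 4 had its lowest value and rat 5 its highest. Cd27, a co-stimulatory receptor of the tumour necrosis factor family, gave -0.77 (adjusted p = 0.0799), Icos 0.07 and Ctla4 0.10.

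Cd69, an early activation marker that retains lymphocytes in tissue, was one of 8 T cell genes above 0 in vehicle-labelled against sham blood, with Cd8b, Cd28, Icos, Ctla4, Prkcq, Il7r and Ccr7. In blood Cd69 measured 6.94, 8.08 and 7.45 in sham, 8.07, 7.92 and 7.98 in model-labelled and 8.26, 8.13 and 8.48 in vehicle-labelled rats. The vehicle-labelled arrays exceeded all others, and sham arrays spread widely. The difference from sham was 0.80 (SE 0.22, adjusted p = 0.0915), which did not pass. Without sham 4, the highest sham array, the difference was 1.10 and passed (adjusted p = 0.00329). It passed with no other single array left out. With each array left out in turn the difference ran from 0.525 to 1.10, and over all alternative settings the adjusted p reached 0.243.

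In blood of model-labelled rats limma called 0 of the 33 genes against sham, as it called 0 (0%) of all genes. At an unadjusted p under 0.05 there were 4 T cell genes, all higher, where 2.61% of all genes were higher and 3.46% lower. The median was 0.21 against -0.04 over all genes, with 24 of 33 above 0. It rested on the sham arrays: without sham 3 it was 0 with 16 genes on each side, and without sham 4 it was 0.33. Without model 3 it was 0.12. The sham 3 blood array was also shifted over all genes, at a mean level of 5.75 against 5.63 to 5.65 in the other blood arrays. In that array the median difference from the sham mean was 0.11 over all genes and -0.22 over the T cell genes, so they lay in opposite directions. Apart from the refits with other normalization, the part of this shift in the median was not tested. The model-labelled arrays stood wholly above sham for 3 genes, Cd40lg, Il7r and Ccr7, against 4.69% of all genes. Il7r measured 8.04, 8.01 and 7.99 in sham, 8.63, 8.74 and 8.87 in model-labelled and 8.69, 7.82 and 8.44 in vehicle-labelled rats. Sham arrays were nearly equal and all model-labelled arrays lay above them, whereas vehicle-labelled arrays fell on both sides of sham. The Il7r difference of 0.73 (SE 0.18) between model-labelled and sham rats had adjusted p = 0.332. Ccr7 measured 9.55, 10.07 and 9.59 in sham, 10.14, 10.15 and 10.25 in model-labelled and 10.15, 9.44 and 10.01 in vehicle-labelled rats (0.44 for model-labelled minus sham, adjusted p = 0.774).

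**Figure D3:**
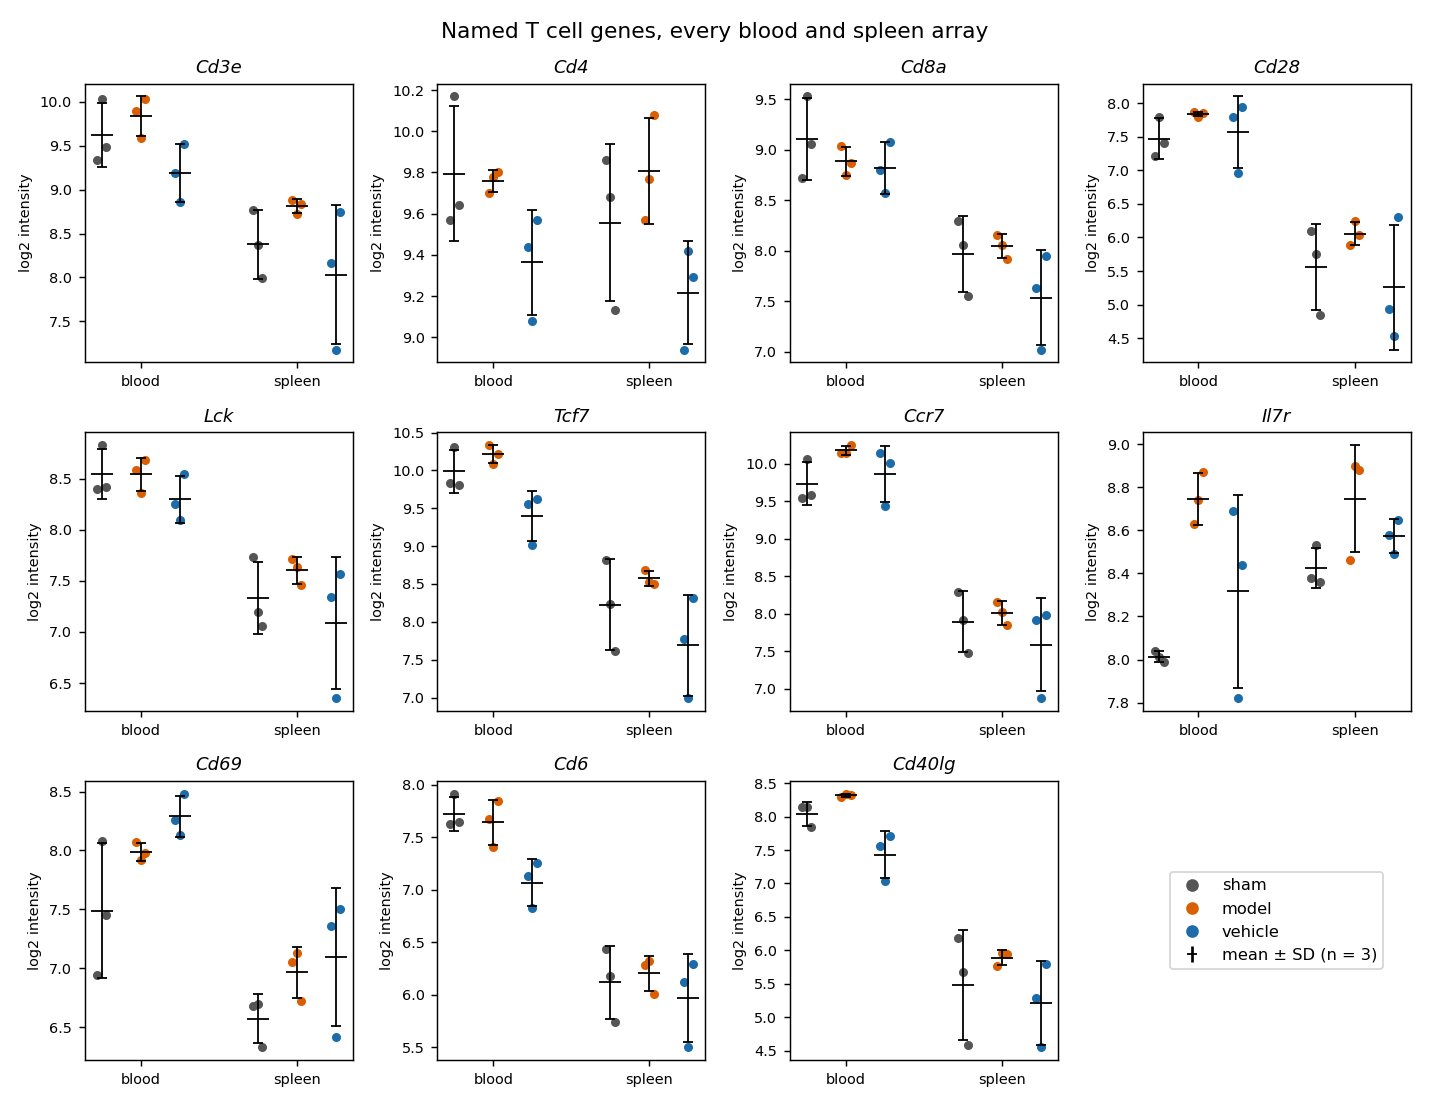
Deposited log2 intensity (vertical axis, its range set for each gene) of 11 T cell genes in every white blood cell and spleen array, by group (colours), with the mean and SD of 3 arrays. In blood the vehicle-labelled arrays of Cd6 and Cd40lg lie below the arrays of both other groups, and so do those of Tcf7.

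In spleen limma called none of the 33 genes in any of the comparisons, where it called 0.0414% of all genes for model-labelled against sham, 0.0483% for vehicle-labelled against sham and 0% for vehicle-labelled against model-labelled rats. At an unadjusted p under 0.05 there were 3 T cell genes, all higher, in the first, 1 lower in the second and 10 lower in the third. At that threshold 6.76% of all genes were higher and 2.74% lower in the first, 4.79% and 4.56% in the second, and 2.96% and 9.95% in the third. The medians were 0.27, -0.18 and -0.51, against 0.07, 0.04 and -0.02 over all genes. Between vehicle-labelled and model-labelled spleens 30 of 33 genes lay below 0, including all 7 of the CD3 complex and co-receptors (median -0.56) and all 5 transcription factors (median -0.55). Vehicle-labelled arrays stood wholly below model-labelled arrays for 6 genes, Cd247, Cd4, Thy1, Cd27, Tcf7 and Gata3, against 11.2% of all genes. Of these, Cd27, Cd4, Gata3 and Tcf7 also stood apart in the blood of the same rats. The share of all genes that stood apart in both tissues was not computed, so this is not read as agreement between tissues.

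The spleen values rested strongly on single animals. Without vehicle 4 the median between vehicle-labelled and model-labelled spleens was -0.16, and that between vehicle-labelled and sham spleens, where just Thy1 stood wholly below (background 5.69%), turned from -0.18 to 0.08. The latter was also 0.00 without sham 3, -0.38 without vehicle 5 and -0.40 without sham 5. The median between model-labelled and sham spleens was 0.06 without sham 5. Vehicle-labelled rat 4 had the lowest of the 9 spleen arrays in 21 of 33 genes and the lowest of the 9 blood arrays in 23. Without vehicle 5, 1 gene was called between vehicle-labelled and model-labelled spleens, Cd28 (-1.32, adjusted p = 0.0464). The share of all genes called in that fit is not given here.

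The named genes show the same animals. Cd3e in spleen measured 8.77, 8.37 and 7.99 in sham, 8.88, 8.72 and 8.84 in model-labelled and 8.17, 7.18 and 8.74 in vehicle-labelled rats. Tcf7 measured 8.82, 8.24 and 7.62 in sham, 8.69, 8.53 and 8.50 in model-labelled and 7.77, 6.99 and 8.31 in vehicle-labelled spleens. In both genes the model-labelled spleens lay close together, and sham and vehicle-labelled spleens spread over a range that included low values in sham 5 and vehicle 4.

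Cd28 measured 6.09, 5.75 and 4.85 in sham, 5.89, 6.24 and 6.04 in model-labelled and 4.94, 4.53 and 6.30 in vehicle-labelled spleens. Within each group Cd40lg ranked the animals alike, at 6.19, 5.68 and 4.58 in sham, 5.76, 5.96 and 5.95 in model-labelled and 5.28, 4.55 and 5.80 in vehicle-labelled spleens. Their groups overlapped, with differences between vehicle-labelled and model-labelled spleens of -0.80 (adjusted p = 0.416) and -0.68 (adjusted p = 0.453).

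Cd4 measured 9.86, 9.68 and 9.13 in sham, 9.57, 9.77 and 10.08 in model-labelled and 8.94, 9.42 and 9.29 in vehicle-labelled spleens, and here it was rat 2 that was lowest (-0.59 against model-labelled spleens, adjusted p = 0.247). Cd8a measured 8.29, 8.06 and 7.55 in sham, 8.16, 8.06 and 7.92 in model-labelled and 7.63, 7.02 and 7.95 in vehicle-labelled spleens (-0.51, adjusted p = 0.368). Both co-receptor genes thus had low sham 5 values, and Cd8a overlapped between all groups.

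Lck measured 7.73, 7.20 and 7.06 in sham, 7.71, 7.64 and 7.46 in model-labelled and 7.34, 6.35 and 7.57 in vehicle-labelled spleens. Ccr7 measured 8.29, 7.92 and 7.47 in sham, 8.16, 8.02 and 7.85 in model-labelled and 7.91, 6.87 and 7.98 in vehicle-labelled spleens. Cd6 measured 6.43, 6.18 and 5.74 in sham, 6.28, 6.32 and 6.01 in model-labelled and 6.12, 5.50 and 6.29 in vehicle-labelled spleens. In these 3 genes all groups overlapped and vehicle-labelled rat 4 was the lowest of the 9 arrays.

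In Il7r and Cd69 sham rat 5 and vehicle-labelled rat 4 were again the lowest of their groups, but the vehicle-labelled means lay above the sham means. Il7r measured 8.38, 8.53 and 8.36 in sham, 8.46, 8.90 and 8.88 in model-labelled and 8.58, 8.49 and 8.65 in vehicle-labelled spleens. Cd69 measured 6.68, 6.70 and 6.33 in sham, 7.05, 7.13 and 6.72 in model-labelled and 7.36, 6.42 and 7.50 in vehicle-labelled spleens. The model-labelled arrays of Cd69 lay wholly above sham (0.40, adjusted p = 0.655), as did those of Gata3, Satb1 and Il2rb, a receptor chain for interleukins 2 and 15, against 13.4% of all genes. Vehicle-labelled Cd69 was above sham in rats 2 and 5 and overlapped it through rat 4 (0.52, adjusted p = 0.533).

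**Figure D4:**
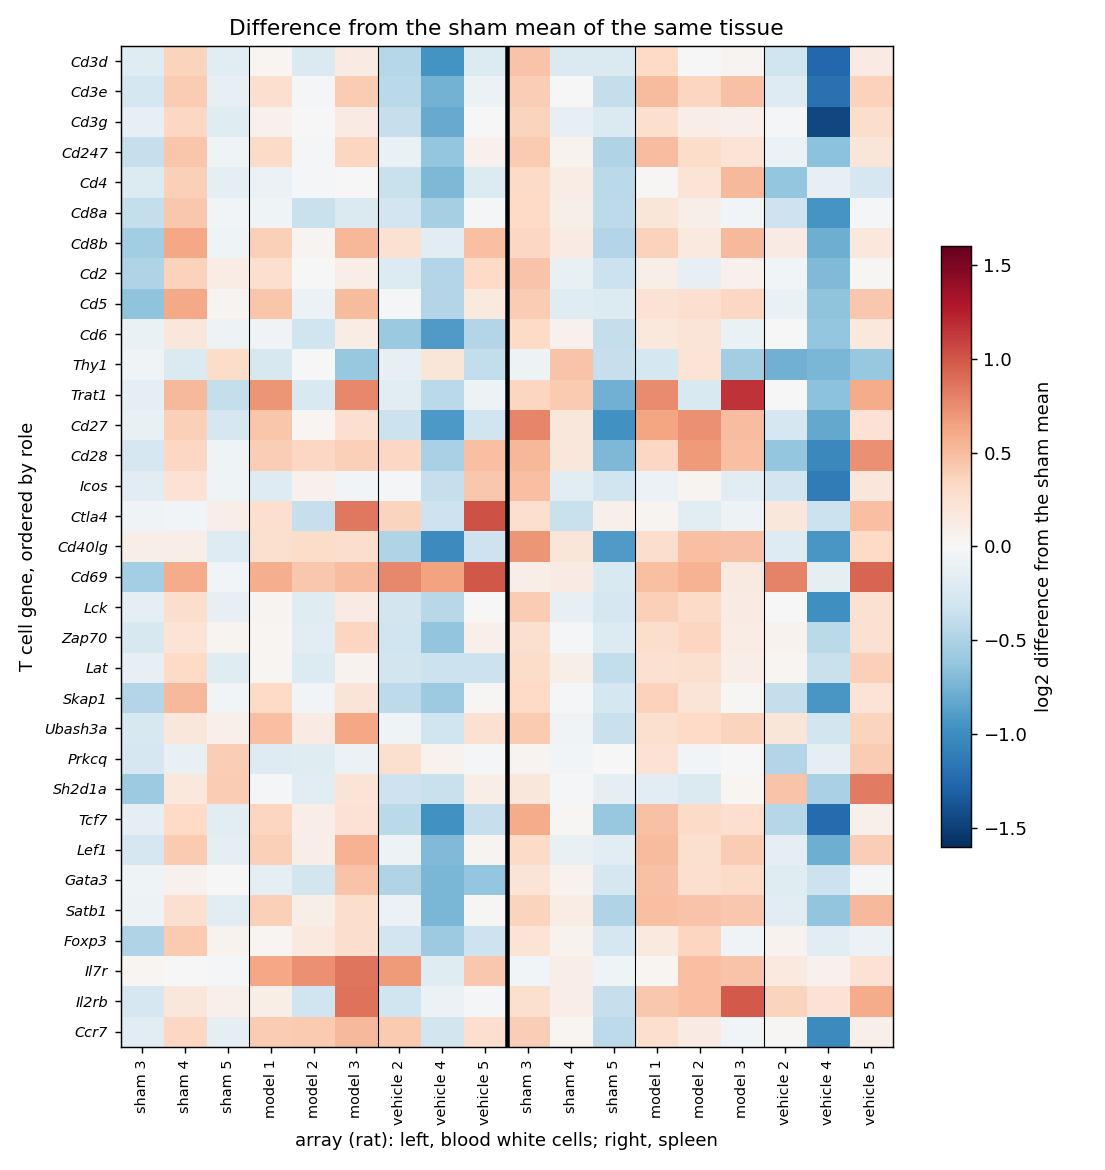
Difference of each array from the sham mean of its tissue (colour, log2) for the 33 T cell genes (rows, ordered by role), with the 9 white blood cell arrays on the left and the 9 spleen arrays on the right, named by rat. The column of vehicle 4 is the lowest in both tissues, sham 5 is low in spleen, and Cd69 is above the sham mean in all 6 model-labelled and vehicle-labelled blood arrays.

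Rat by rat, the median difference of the 33 genes from the sham mean was -0.30, -0.51 and 0.01 in the blood of vehicle-labelled rats 2, 4 and 5 and -0.09, -0.66 and 0.24 in their spleens. In model-labelled rats 1, 2 and 3 it was 0.27, -0.01 and 0.28 in blood and 0.28, 0.26 and 0.15 in spleen. In sham rats 3, 4 and 5 it was -0.22, 0.33 and -0.06 in blood and 0.33, 0.05 and -0.36 in spleen. The vehicle-labelled rats kept the same order in both tissues, with rat 4 lowest and rat 5 highest, whereas sham rat 3 was the lowest of its group in blood and the highest in spleen. Over all genes the median difference of the sham 3 blood array was 0.11, against -0.07 to -0.03 in the other blood arrays.

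Whether a gene differed more in blood than in spleen was tested as the difference between both effects over the 18 arrays. Limma called 0 of the 33 genes for model-labelled against sham, vehicle-labelled against sham and vehicle-labelled against model-labelled rats, where 0%, 0.634% and 0.00689% of all genes were called. The lowest adjusted p among the T cell genes was 0.775, 0.441 and 0.651, and at an unadjusted p under 0.05 there were 0, 0 and 1, against 6.49%, 12.4% and 7.6% of all genes. With the rat as a random block, which the shared animals call for, the counts were also 0. The calls of Cd6, Cd40lg and Tcf7 in blood are therefore not shown to differ between blood and spleen. Cd6, for vehicle-labelled against sham, gave -0.66 in blood and -0.15 in spleen (adjusted p of the difference 0.457).

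Marker lists of some other cell types moved in the same arrays. In blood, 9 of 10 erythroid genes and 8 of 12 neutrophil genes rose in vehicle-labelled against sham rats, with medians of 2.62 and 1.35, where 1.58% of all genes were called higher. The mean level of the erythroid genes ran from 7.06 to 7.68 in sham, from 7.78 to 7.83 in model-labelled and from 9.12 to 10.04 in vehicle-labelled blood. That of the neutrophil genes ran from 5.92 to 6.43, from 6.27 to 6.94 and from 7.53 to 8.20. The 8 measured B cell genes were all above 0 in vehicle-labelled against sham blood, none called, with a median of 0.47. Their mean level ran from 7.41 to 7.72 in sham, from 7.28 to 8.10 in model-labelled and from 7.96 to 8.03 in vehicle-labelled blood, so the model-labelled arrays span both other groups. Natural killer cell genes, several of which cytotoxic T cells share, had a median of -0.32 with 0 of 11 called. Monocyte and macrophage genes lay on both sides of 0 (6 above and 5 below, median 0.03), as did the 4 platelet genes (2 and 2). Against model-labelled blood, 9 of 10 erythroid and 4 of 12 neutrophil genes rose, where 1.26% of all genes were called higher. The part that these cells play in the lower T cell values of vehicle-labelled blood was not tested.

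In spleen some other marker lists also lay mostly to one side of 0, with no gene called in any list. Others did not between vehicle-labelled and model-labelled spleens. Neutrophil genes lay 5 above 0 and 7 below, natural killer cell genes 5 and 6, and splenic red pulp and stroma genes 3 and 5. All 8 B cell genes lay below 0 between vehicle-labelled and model-labelled spleens, with a median of -0.48 and none called, and their mean level was 8.41, 7.89 and 8.77 in vehicle-labelled rats 2, 4 and 5 against 8.74 to 8.86 in model-labelled rats. The mean level of the erythroid genes was 9.90, 10.45 and 10.52 in sham, 9.19, 9.94 and 8.72 in model-labelled and 10.12, 10.69 and 8.38 in vehicle-labelled spleens. It was highest in vehicle-labelled rat 4, where the T cell genes were lowest. Next came sham rats 5 and 4, whose spleen medians of the T cell genes were -0.36 and 0.05. In blood the erythroid genes were highest in vehicle-labelled rat 2 (10.04), above rat 4 (9.80), where the T cell genes were lowest. None of the 10 erythroid genes was called in a spleen comparison. Monocyte and macrophage genes lay below 0 in 9 of 11 between vehicle-labelled and model-labelled spleens (median -0.28, none called, 5 lower at an unadjusted p under 0.05). Their mean level ran from 8.81 to 9.06 in sham, from 8.85 to 9.08 in model-labelled and from 8.56 to 8.79 in vehicle-labelled spleens. The vehicle-labelled arrays thus lay below all others, though 8.79 was close to the lowest sham array at 8.81. The 4 platelet genes were all above 0 (median 0.43, none called), with mean levels from 9.07 to 9.92, from 9.04 to 9.57 and from 9.66 to 10.22 in the same group order. The part of these cells in the spleen values was not tested.

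**Figure D5:**
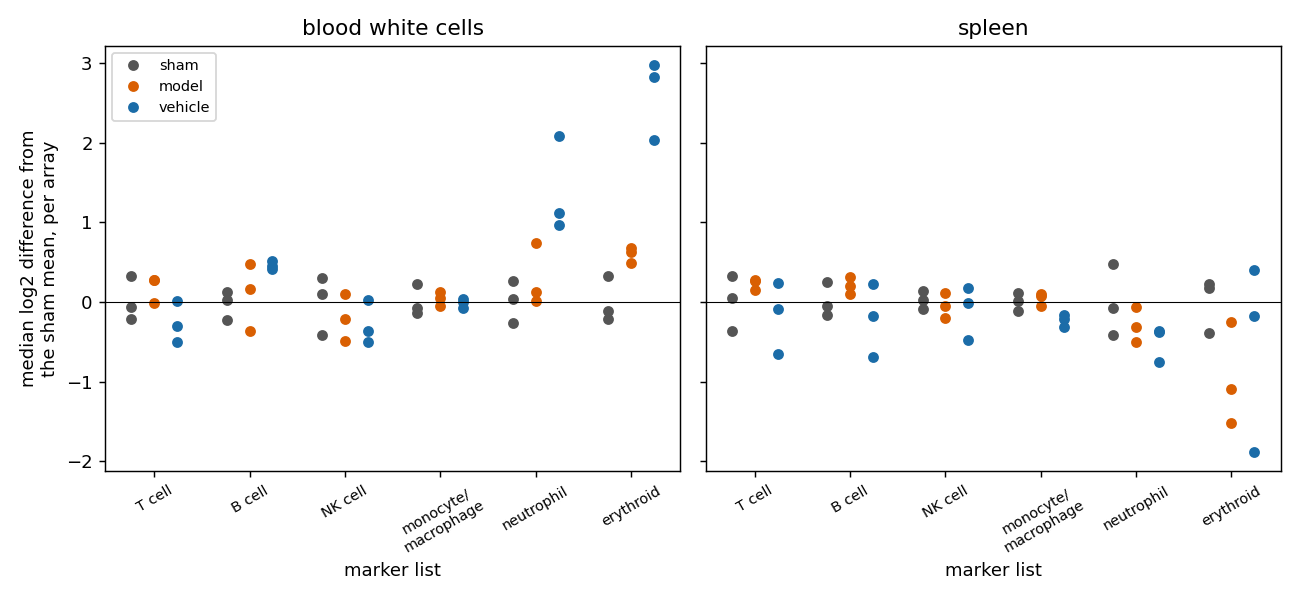
Median difference from the sham mean of the tissue (log2, vertical axis), 1 point per array, for the T cell genes and 5 marker lists in white blood cells and spleen. In vehicle-labelled blood the erythroid points lie between 2.03 and 2.97 and the neutrophil points between 0.96 and 2.08, while T cell points lie between -0.51 and 0.01.

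Of 50 further genes of T cell signalling, subsets and migration 40 were measured. None was called between groups in blood or spleen, where at most 2.01% of all genes were called in a comparison. In vehicle-labelled against model-labelled blood their median was -0.18, with 10 lower and 1 higher at an unadjusted p under 0.05 (all genes 5.23% and 5.64%). In spleen it was -0.31, with 11 lower and 2 higher (all genes 9.95% and 2.96%). In sham rats 24 of the 40 were higher in blood than in spleen and 4 lower, where 19.7% of all genes were called higher and 19.3% lower.

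Brain served as the reference tissue. None of the 33 genes was called there by limma, which called 1.16% of all genes for model-labelled against sham, 0.0483% for vehicle-labelled against sham and 0.0551% for vehicle-labelled against model-labelled brains. At an unadjusted p under 0.05 there were 1, 3 and 5 lower and 0, 0 and 1 higher. Of all genes 6.84%, 3.44% and 7.21% were lower and 7.53%, 5.89% and 7.13% higher at that threshold. Arrays of both groups did not overlap for 2, 3 and 7 T cell genes in the lower direction and for 4, 0 and 2 in the higher. Of all 14506 genes these were 1210, 791 and 1663 lower and 1701, 1151 and 1457 higher. The 7 genes of the last comparison were Cd3e, Cd247, Lck, Zap70, Lat, Ubash3a and Il7r. The medians of 0.09, -0.04 and -0.03 were close to those of all genes, 0.03, 0.01 and -0.01. The direction of the last turned to 0.03 with quantile normalization, and without sham 3 the second was 0.04. The CD3 genes were at low values in every brain array, with Cd3d between 3.47 and 4.13, Cd3g between 3.12 and 3.71 and Cd3e between 3.87 and 4.99. Among the 40 further genes Il4r, the interleukin 4 receptor, which many cell types carry, rose in model-labelled brains by 1.22 (SE 0.19, adjusted p = 0.0179).

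A few members stood apart in single brains or throughout. Gata3 measured 7.17 in the brain of vehicle-labelled rat 2 and between 3.93 and 4.87 in the other 8 brains, and Lef1 measured 7.36 there and between 5.33 and 5.88 elsewhere. Thy1 ranged from 11.09 to 11.67 over the 9 brains and Satb1 from 7.70 to 9.49. Il7r had the smallest p between vehicle-labelled and model-labelled brains, with a difference of -0.83 (SE 0.15, adjusted p = 0.0893) that did not pass.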

How the data were processed

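Per the labels, total RNA of each sample was converted to cDNA, and Affymetrix rat genome arrays were hybridized with the biotin-labelled product. The deposited table holds 27596 values per array, which the authors made with RMA, per the submitters' processing notes, version not given in the sources used here. The authors' deposited values are taken as log2 intensities made with RMA, per the labels, since they run from 1.53 to 13.49 with array medians between 4.96 and 5.31. Whether tissues were normalized together is not stated, and no normalization was added.

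The probe table lists 1 symbol for 15310 probes, which were kept, several for 323 and none for 11963. Identifiers of 15279 probes matched the RefSeq table, and 0 symbols changed. Groups come from the sample titles. Each tissue was fitted over its 9 arrays with limma 3.58.1 in R 4.3.3 (lmFit, eBayes, 2-sided, Benjamini-Hochberg over 14506 genes). Sham tissues were compared in a fit of 27 arrays, and the difference between blood and spleen effects in a fit of 18. The fits were also run on simulated data with independent noise for each gene. That setting cannot speak for genes that shift together in an array, as the T cell genes did.

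Per the series design the 3 tissues came from each rat, so a rat pairs its arrays across tissues. Residuals of blood and spleen of the same rat correlated with r between 0.032 and 0.517 over genes. Over all 27 same-rat pairs of tissues r ran from -0.058 to 0.517. Numbers shared by groups are not the same rat. The members and gene lists were chosen with earlier results of these data known. Values per array are given for 9 genes of the naming rule (Cd3e, Cd4, Cd8a, Cd28, Lck, Tcf7, Ccr7, Il7r and Cd69) and for every member called in blood or spleen. Other members are given by range, count or difference. No hybridization date or batch is given in the labels. No sequence table was used here.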

Additional observations from a re-analysis of the deposited data

How the results depend on the processing

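Alternatives changed one choice at a time: normalization, samples in the fit, leaving out genes under the 40th percentile of mean level, averaging a gene's probes, a robust prior with a trend, weights for arrays, a replicate block, a threshold of 0.10 and leaving out each array. In blood, vehicle-labelled against sham, the 1 called gene became 0 with arrays centred on their median and in the fit of 27 arrays, 2 with array weights and 4 at 0.10. Against model-labelled blood the 2 called genes became 1, 0, 7 and 4 in that order. Leaving out single arrays gave 0 to 2 and 0 to 3. In spleen, vehicle-labelled against model-labelled, it gave 0 to 1. In brain, array weights gave 1 called gene for vehicle-labelled against sham. For vehicle-labelled against model-labelled brains array weights, the fit of 27 arrays and a threshold of 0.10 each gave 1. The shares of all genes called in these alternatives are not given here. A changed count is therefore not read as a result about the T cell genes. The spleen median for vehicle-labelled against model-labelled ran from -0.635 to -0.163 with single arrays left out. Brain medians ran from 0.042 to 0.153 for model-labelled against sham, from -0.057 to 0.043 for vehicle-labelled against sham and from -0.107 to 0.015 for vehicle-labelled against model-labelled. With quantile normalization the first was 0.017 (18 genes above and 15 below 0) and the last 0.029. With the filter, which left 7 of the 33 genes in brain, the 3 medians were 0, 0.04 and 0.04. The cause of these shifts was not tested, apart from the fewer genes of the filter.

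Replicate numbers shared by groups are not the same rat, so they are not taken to pair arrays. Residuals of arrays with the same number correlated between -0.474 and 0.377 over 12 pairs. Those of the 27 same-rat pairs ran from -0.058 to 0.517. The ranges overlap, so the correlations cannot decide on pairing. With the number as a replicate block the counts of called T cell genes in blood were 0, 1 and 2, as without it, and the medians were 0.18, -0.25 and -0.39. With the rat as a replicate block 29 genes in place of 27 differed between sham blood and sham spleen, 28 higher and 1 lower, and the block changed no other count. The 27 to 33 calls between sham tissues stayed between 23 and 33 in every alternative run. The shares of all genes called in the block fits and these runs are not given here. Their counts are therefore not read as a result about the T cell genes.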
